A study of Mus musculus with 5 samples.

Results

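Long noncoding RNAs are transcripts longer than the usual small RNAs that are not known to encode a protein. The genes described here were the 37 of 52029 genes of a deposited 4-library table whose annotation rows were all long noncoding and whose counts, summed over the 4 libraries, reached at least 2000, leaving out H19 and mitochondrial symbols. They were thus selected on their abundance, and that abundance is a description, not a result. In all, 9679 genes had only long noncoding rows, of which 4398 had a count above 0 in some library.

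The libraries were made from total RNA of hepatobiliary organoids, epithelial cultures grown from primary liver stem/progenitor cells of wild-type mice. All groups were grown in a medium with EGF, nicotinamide, heparin, endothelial growth supplement and the kinase inhibitor Y-27632, and all were taken at day 10. M11 and M12, the 2 libraries made from organoids alone, were at passage 1, and the 3 libraries of organoids co-cultured with liver endothelial cells (M9, M10 and one in a separate table, called the third co-culture library) were at passage 8, so that co-culture and passage cannot be told apart. The series asks which pathways the endothelial cells use to act on survival and growth of the progenitor cells. In bulk RNA, fewer cells of a type and less RNA per cell cannot be told apart either.

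Some abundant long noncoding RNAs stay in the nucleus and hold protein bodies together, as Malat1 in nuclear speckles and Neat1 in paraspeckles. Others act on neighbouring genes of an imprinted cluster, bind proteins or microRNAs in the cytoplasm, or serve mainly as the precursor of a small RNA that is cut out of them. Many further entries of this class are transcribed repeats or copies of other genes, whose reads are hard to assign to one locus.

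The sequences that bear on the named genes are shown first. Dio3os and 4930461G14Rik were the only ones of the 37 called higher in co-culture, and their start regions differ widely in letters. Each window runs from 250 bases before to 50 bases after the RefSeq start. For Dio3os it is chr12:110278019-110278318 (GRCm38.p6, minus strand), with the mature miR-1247 sequences in capitals; the GENCODE start lies further upstream, so that both lie in its exon. For 4930461G14Rik it is chr9:58454923-58455222 (plus strand), with each CG in capitals.
Dio3os: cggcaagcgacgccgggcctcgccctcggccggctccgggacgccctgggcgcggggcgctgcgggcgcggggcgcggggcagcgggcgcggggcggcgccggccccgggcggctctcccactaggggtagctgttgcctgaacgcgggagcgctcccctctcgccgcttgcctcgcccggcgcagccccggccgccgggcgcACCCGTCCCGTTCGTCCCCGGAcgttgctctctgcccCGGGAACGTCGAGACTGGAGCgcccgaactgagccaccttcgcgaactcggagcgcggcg
4930461G14Rik: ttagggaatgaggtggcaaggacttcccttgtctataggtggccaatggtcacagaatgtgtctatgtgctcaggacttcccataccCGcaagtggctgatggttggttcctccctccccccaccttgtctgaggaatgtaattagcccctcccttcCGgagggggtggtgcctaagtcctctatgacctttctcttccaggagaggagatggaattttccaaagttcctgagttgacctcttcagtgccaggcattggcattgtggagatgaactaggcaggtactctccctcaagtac
The Dio3os window held 53 CG and was 80.0% G or C, against 2 CG and 52.0% in the window of 4930461G14Rik.

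Dio3os, Gm49890, Mir22hg and Snhg20 each held a microRNA hairpin in an exon. The mature sequences are RefSeq's, with the seed (bases 2 to 8) in capitals, and no seed was shared between them.
miR-1247-5p: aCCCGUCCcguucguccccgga
miR-1247-3p: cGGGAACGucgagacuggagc
miR-31-5p: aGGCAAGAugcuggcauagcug
miR-31-3p: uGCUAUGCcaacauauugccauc
miR-22-5p: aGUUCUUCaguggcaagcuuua
miR-22-3p: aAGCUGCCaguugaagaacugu
miR-6516-5p: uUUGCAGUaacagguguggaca
miR-6516-3p: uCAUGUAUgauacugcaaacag
The libraries measured the host transcripts and not the mature microRNAs.

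Norad and Oip5os1 carry binding sites in the transcript itself. Norad is known to bind Pumilio proteins, and a stretch of 29 bases of its transcript (bases 2436 to 2464, GENCODE M21) is shown with the Pumilio motif TGTANATA in capitals. Oip5os1, also called Cyrano, is known for a site that pairs with miR-7. Bases 2935 to 2959 of its transcript are shown with the paired blocks in capitals, above miR-7a-5p with its seed in capitals.
Norad: ctatgcTGTATATAtTGTACATActggac
Oip5os1: ACAACAAAATCACcaatGTCTTCCa
miR-7a-5p: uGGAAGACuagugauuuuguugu
The motif TGTANATA, searched on the transcript strand only, occurred 11 times in the 4915 bases of Norad, or 2.24 times per kilobase. Of 29786 genes with a longest transcript of at least 1000 bases, 10 held it as densely or more densely, Norad among them. Per kilobase, Rab10os came next among the 37, with 4 motifs in its transcript, and 26 of the 37 longest transcripts held none. The Oip5os1 site pairs with miR-7a-5p over a block of 13 bases and a seed block of 7 bases, with 4 bases unpaired between them.

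Of the 37, 12 shared most of a transcript with another gene. Aligned stretches of 100 bases are shown for a pair of genes that are both among the 37, and for Gm12840 and Gm20186, one of its copies. Mismatching bases are in capitals.
Gm47283: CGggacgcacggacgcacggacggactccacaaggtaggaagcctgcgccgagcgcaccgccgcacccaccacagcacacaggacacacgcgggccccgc
Gm55594: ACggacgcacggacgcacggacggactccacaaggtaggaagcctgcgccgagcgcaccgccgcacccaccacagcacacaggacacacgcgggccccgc
Gm12840: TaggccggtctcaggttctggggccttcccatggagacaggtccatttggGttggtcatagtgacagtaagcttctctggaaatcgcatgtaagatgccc
Gm20186: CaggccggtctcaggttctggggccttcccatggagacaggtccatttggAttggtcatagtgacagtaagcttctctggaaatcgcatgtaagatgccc
Each pair differed at 2 of these 100 bases. The stretches were chosen for the fewest mismatches but at least 2, so that this number follows from the choice.

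Total counts were 26466739 in M11, 29195328 in M12, 33881617 in M9 and 35878241 in M10, and the library with its own table held 58853737. The 37 genes took 0.73% of counts in M11 and in M12, 0.55% in M9 and 1.03% in M10. Malat1 and Neat1 alone made up 64.9% and 60.2% of these counts in M11 and M12, and 64.7% and 71.3% in M9 and M10. The share of the whole set was thus lowest in one co-culture library and highest in the other. Whether the libraries within a group are separate cultures is not stated, and p-values cover just the variation among the libraries, which may be technical.

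The co-culture libraries were checked for endothelial RNA. The 10 endothelial markers (among them Pecam1, Cdh5 and Stab2) summed to 1.03 and 0.69 CPM (read counts divided by library size and adjusted by TMM for composition) in M11 and M12 and to 0.83 and 0.66 in M9 and M10, and none of the 10 had enough counts to be tested. Other cell type markers did differ between the groups. The 8 hepatocyte markers summed to 600.3 and 1526 CPM alone against 134 and 220.2 in co-culture, with 2 of 8 at 0 in M9 and in M10, and 3 of 6 tested were called lower (Alb, Hp and Trf). Most of the sum was Trf, which encodes transferrin, and the others did not all go the same way: Ttr and Apoa1 had positive differences (1.01 and 2.74, adjusted p = 0.188 and 0.136). The 8 summed to 1443 CPM in the third co-culture library, close to M12. The 6 mesenchymal markers summed to 21.4 and 60.8 CPM alone against 1.78 and 2.14 (2 of 5 tested lower), with 3.06 in the third co-culture library. The 5 macrophage markers summed to 659.4 and 583.5 against 309.3 and 276.6 (2 of 3 tested lower, Adgre1 at 0 throughout), with 431 in the third co-culture library. Most of that sum was Cd14, with 620.6 and 550.9 CPM alone against 278.1 and 224.1. Cd14 and Lyz2 were the 2 called lower, while Csf1r had a positive difference (0.47, edgeR adjusted p = 0.4625). The 7 cholangiocyte and progenitor markers summed to 6386 and 7954 CPM alone against 10300 and 9608. Of these, Krt19, Krt7 and Prom1 were called higher, while the other 4 had negative differences, Spp1 the lowest (-1.44, adjusted p = 0.0825), and the median over the 7 was -0.05. The 7 summed to 6002 CPM in the third co-culture library, below both libraries of organoids alone, with Krt19 and Krt7 at differences of -0.60 and -0.80. The part of these cell types in the results below was not tested.

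Of the 37 genes, 5 (13.5%) were called different between co-culture and organoids alone by edgeR's quasi-likelihood test at a Benjamini-Hochberg adjusted p under 0.05 over all genes tested: Dio3os and 4930461G14Rik were higher, and Gm42031, Gm12840 and Gm48275 were lower. Over all 15899 genes tested the same rule called 2.24%, with 0.994% higher and 1.25% lower. It called 2.2% of the 8516 genes with at least 2000 summed counts and 0.79% of the 1139 tested genes with only long noncoding rows. Of the 37, 7 had at least 1000 counts only in the co-culture libraries, and both genes called higher were among them, so that their direction was tied to their selection; the 3 called lower were among the 30 with at least 1000 counts in each group. Over the 37 genes the median log2 difference (co-culture minus alone, where 1 is a 2-fold change) was -0.01, with 18 positive and 19 negative, beside 0.00 over all genes tested. DESeq2 called 7 of the 37, beside 8.26% of all genes. Leaving out a library moved the calls over all genes as well as those among the 37. The median log2 difference of the 37 was -0.118 without M11, 0.082 without M12, -0.001 without M9 and -0.245 without M10. Over all genes it lay between -0.019 and 0.019 in these fits. Without M11, edgeR called 0 of the 37 and 0.292% of all genes, with 8 of the 37 and 9.33% of all genes at an unadjusted p under 0.05. Without M12 it called 0 of the 37 and 0 of all 16957 genes, with 6 of the 37 and 8.48% of all genes at an unadjusted p under 0.05. Without M9 it called 14 of the 37, beside 15.7% of all genes, with 18 of the 37 and 29.5% of all genes at an unadjusted p under 0.05. With the third co-culture library added, edgeR called 0 of the 29 genes that could be matched and 2 of all 14949 genes (0.0134%), with 5 of the 29 and 9.63% of all genes at an unadjusted p under 0.05.

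**Figure D1:**
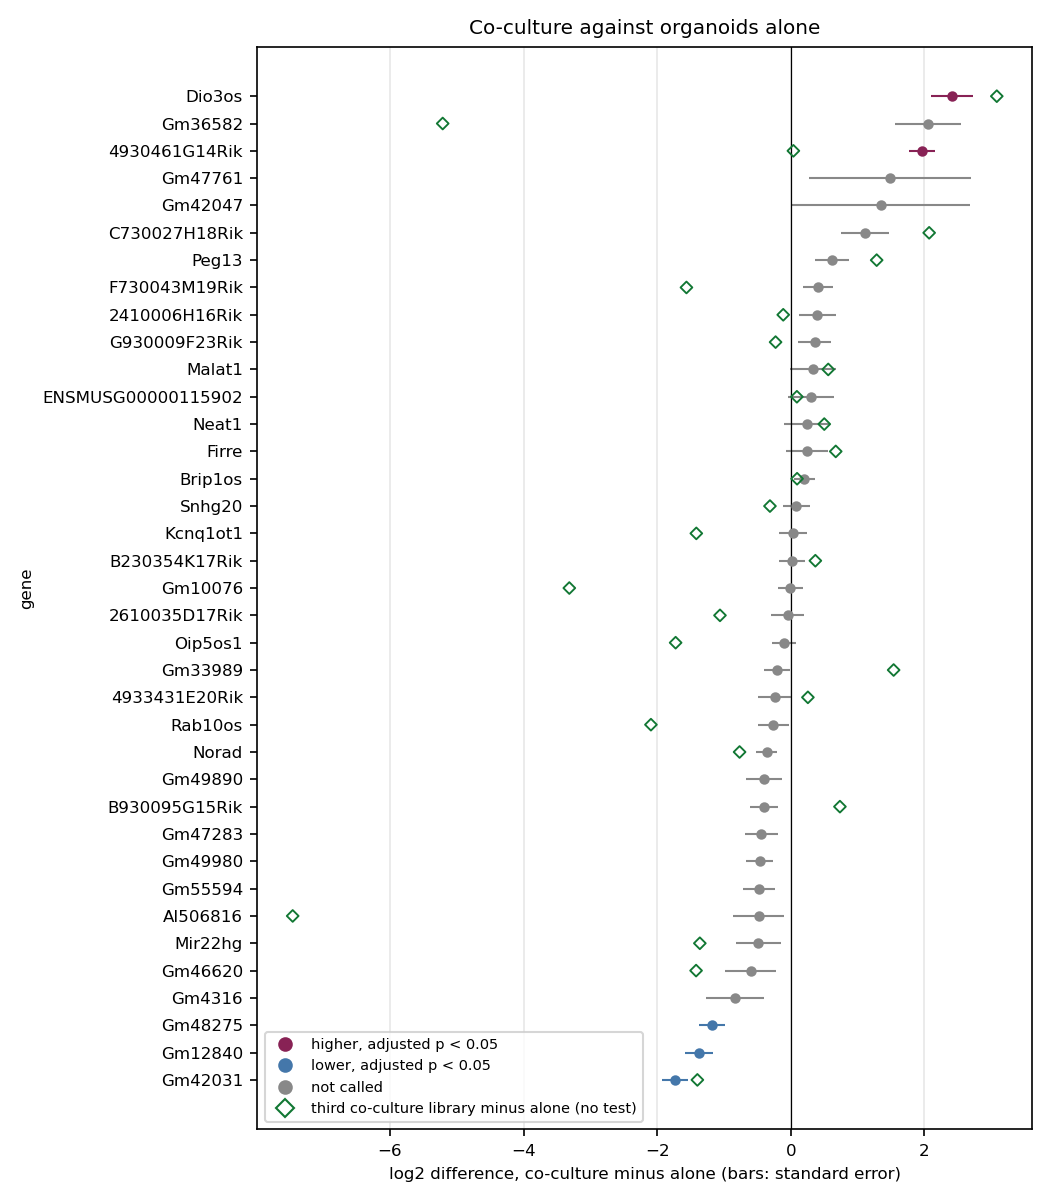
Log2 difference between co-culture (M9, M10) and organoids alone (M11, M12) for each of the 37 genes, with its standard error from edgeR; colours mark the 5 genes called at an adjusted p under 0.05. Open diamonds give the third co-culture library minus the mean of the organoids alone, for the matched genes with more than 3 counts there; for 4930461G14Rik the diamond lies at 0.04 beside a fitted difference of 1.96.

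Dio3os is a noncoding RNA of the imprinted Dlk1-Dio3 cluster, transcribed away from Dio3, which encodes the deiodinase that inactivates thyroid hormone. It lies at chr12:110275385-110278172 on the minus strand of GRCm38. Dio3os measured 13.1 CPM in M11 and 13.1 in M12, and 49.1 in M9 and 90.5 in M10. Both co-culture libraries were far above both libraries of organoids alone, and M10 above M9. The log2 difference was 2.41 (SE 0.32, edgeR adjusted p = 0.0302). In the third co-culture library Dio3os stood at 117 CPM, 3.08 on the log2 scale above the organoids alone. It lost its call in limma-voom (adjusted p = 0.0548), without M11 (0.168), without M12 (0.221) and with all 5 libraries (0.154), with log2 differences between 2.35 and 2.68. Over all alternatives its adjusted p ran from 1.18e-10 in DESeq2 to 0.221.

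The starts of Dio3os and Dio3 lie 896 bases apart on opposite strands. Dio3 measured 15.7 and 15.2 CPM in M11 and M12 and 65.6 and 107 in M9 and M10. It showed the same order of libraries as Dio3os, with groups that did not overlap, and was called higher (log2 difference 2.48, SE 0.27, edgeR adjusted p = 0.0203). Their annotated exons do not overlap. Other genes of the cluster were low and not called. Meg3, the maternally expressed noncoding RNA of the cluster, measured 2.61, 3.09, 2.76 and 13.3 CPM in M11, M12, M9 and M10, so that M10 alone was high (log2 difference 1.50, edgeR adjusted p = 0.373). Rian, another noncoding RNA there, had the same shape with 1.91, 1.71, 1.96 and 6.06 CPM. Dlk1, the protein-coding gene at the other end, had between 2 and 15 counts in each library and was not tested.

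4930461G14Rik, a 3-exon gene at chr9:58455122-58469635 (plus strand) with no role to name here, measured 10.9 and 10.4 CPM in M11 and M12 and 39.5 and 43.8 in M9 and M10. The libraries within each group lay close together and the groups did not overlap. The log2 difference was 1.96 (SE 0.19, edgeR adjusted p = 0.0167). The third co-culture library did not share this level: it stood at 11.5 CPM, 0.04 above the organoids alone on the log2 scale. The call was lost without M11 (adjusted p = 0.0981), without M12 (0.164) and with all 5 libraries (0.506), and the lowest adjusted p was 4.92e-14 in DESeq2. The nearest protein-coding start, that of Insyn1 33481 bases away, differed by -0.33 (adjusted p = 0.674).

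Gm42031 (chr8:85125872-85132289, minus strand) measured 399 and 389 CPM in M11 and M12 and 136 and 100.1 in M9 and M10. Both co-culture libraries were below both libraries of organoids alone. The log2 difference was -1.74 (SE 0.20, edgeR adjusted p = 0.0208), and the third co-culture library lay lower too, at a difference of -1.40. Gm48275, a single exon of 287 bases at chr10:50425044-50425330 (minus strand), measured 94.1 and 128 CPM alone and 47.4 and 50.9 in co-culture. Its groups did not overlap either (log2 difference -1.18, SE 0.20, edgeR adjusted p = 0.049). Gm12840 (chr4:117700188-117700923, plus strand) measured 44.8 and 59.1 CPM alone against 19.8 and 20.3, with nearly equal co-culture libraries (log2 difference -1.37, SE 0.21, edgeR adjusted p = 0.0374). All 3 lost their call without M11 (adjusted p = 0.0966 for Gm42031, 0.11 for Gm48275 and 0.119 for Gm12840) and without M12 (0.153, 0.352 and 0.319), and Gm48275 also in limma-voom (0.0588). Gm42031 was not called with all 5 libraries (0.125). The lowest adjusted p over the alternatives was 5.51e-12 for Gm42031 and 3.31e-06 for Gm12840 in DESeq2 and 1.28e-05 for Gm48275 without the low-count filter.

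All 3 genes called lower shared sequence with other genes, and none had whole-number counts; of the 37 genes, 12 did. Gm43305 holds 91.3% of the Gm42031 transcript at 98.6% identity and all of the Gm48275 transcript at 99.0%. It is not among the 37 because one of its rows is a retained intron, and with 1470, 2100, 1170 and 647 CPM in M11, M12, M9 and M10 it had the highest CPM of the group, a level not adjusted for length (log2 difference -0.97, edgeR adjusted p = 0.208). Summed with Gm43305, Cnbd2 and Gm42428 into one feature, Gm42031 and Gm48275 were no longer called (log2 difference -1.10, SE 0.29, adjusted p = 0.137). Further genes share shorter stretches of Gm42031: Cep85 37.3% of it on the opposite strand (log2 difference -1.01, adjusted p = 0.0885) and Chd9 29.1% (-1.12, adjusted p = 0.149). Gm12840 summed with Gm20186, which aligned over its whole transcript at 97.7% identity, kept its call (-1.39, SE 0.20, edgeR adjusted p = 0.0361). Gm26809 aligned over the whole Gm12840 transcript too, at 97.5% identity on the opposite strand. It had no deposited counts for these libraries and was not in the sum. After summing, 3 features that hold one of the 37 were called out of 32, beside 354 of all 15885 features tested.

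**Figure D2:**
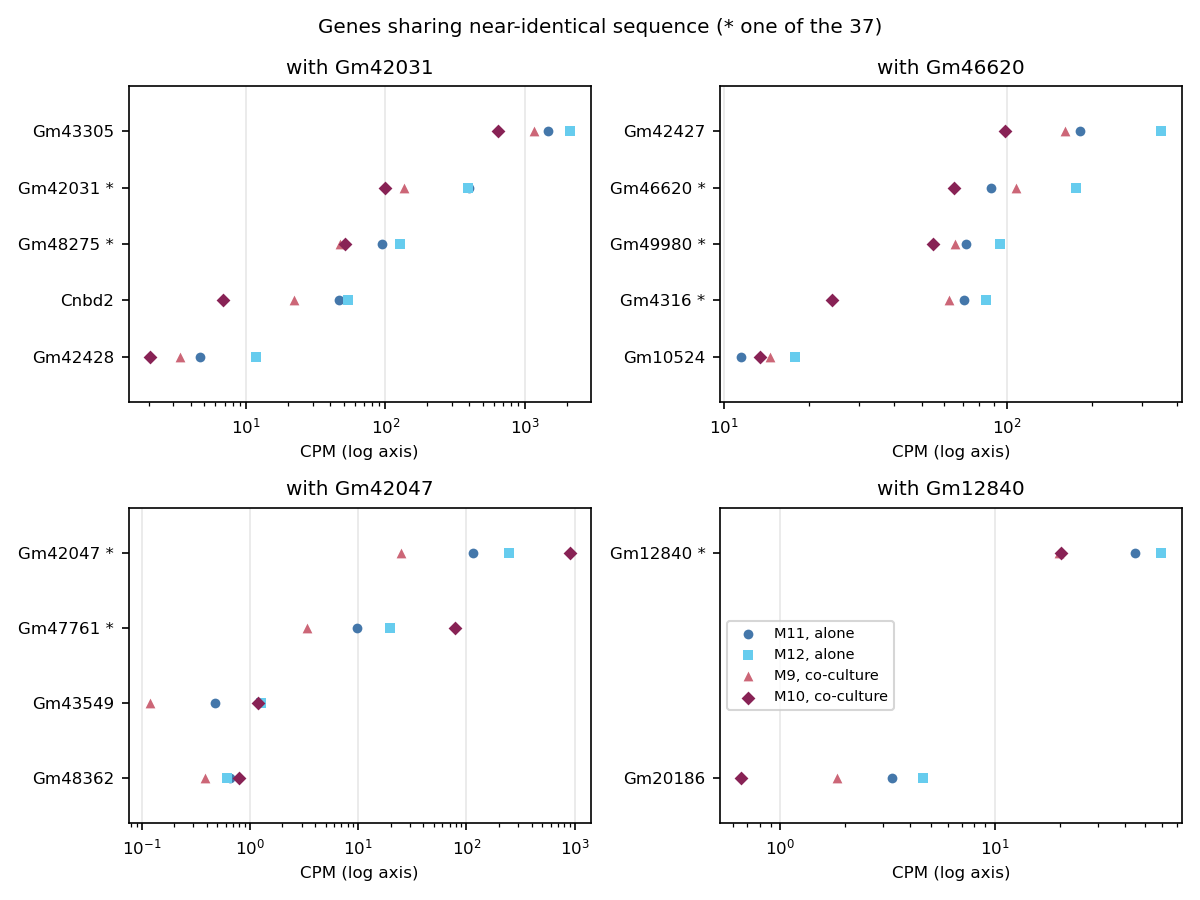
CPM on a log axis in the 4 libraries for 4 groups of genes that share at least 50% of a transcript at 95% identity or more, one panel a group; a star marks one of the 37, and a copy at 0 in some library is left out. In the panel with Gm42031 all genes are lower in M9 and M10 than in M12, and in the panel with Gm42047 the 2 most abundant genes run from lowest in M9 to highest in M10.

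The group of Gm42047 and Gm47761 showed the widest spread within a group of libraries. Gm42047 (chr8:121833247-121841178) measured 115 and 246 CPM in M11 and M12, 24.9 in M9 and 898 in M10. M9 was the lowest and M10 the highest library, a ratio of 36.0 between 2 libraries of one group. Gm47761, on another chromosome but sharing 81.8% of its transcript with Gm42047 at 99.2% identity, followed the same order with 9.80, 19.5, 3.36 and 78.6 CPM. Neither was called (log2 difference 1.35, SE 1.33, and 1.48, SE 1.21, edgeR adjusted p = 0.68 and 0.605), and both reversed without M10 (-2.85 and -2.12).

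Gm46620, Gm49980 and Gm4316 formed a further group through Gm42427, which holds 98.9% of Gm46620 at 99.7% identity. Gm46620 measured 87.9, 174.5, 108 and 65.3 CPM in M11, M12, M9 and M10, with overlapping groups. Gm49980 (71.8, 94.5, 65.5 and 54.7 CPM) and Gm4316 (70.5, 84.3, 62.7 and 24.0 CPM) were lower in both co-culture libraries. None was called (log2 differences -0.60, -0.47 and -0.84, edgeR adjusted p between 0.307 and 0.502). Single libraries decided these values: without M9 Gm4316 stood at -1.68 and was called (adjusted p = 0.000455), without M10 it stood at -0.30, and without M12 Gm46620 stood at -0.02. Miga1 shares 37.8% of the Gm4316 transcript at 99.3% identity on the opposite strand and was itself called lower (-2.01, SE 0.17, adjusted p = 0.0125). Gm4316 was listed at 0 in the separate table of the third co-culture library.

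Gm47283 on chromosome Y and Gm55594 on chromosome X are the pair of genes shown above, and GENCODE M21 lists both as protein-coding although the deposited rows call them long noncoding. Gm47283 measured 233 and 241 CPM alone and 132 and 217 in co-culture. Gm55594 measured 32.0 and 37.2 against 20.4 and 29.5. In both genes M9 was lowest and the groups did not overlap, with log2 differences of -0.44 (SE 0.25, edgeR adjusted p = 0.451) and -0.47 (SE 0.24, 0.394). Without M10 they were -0.84 and -0.76, and Gm47283 was called (adjusted p = 0.0161); without M9 they were -0.12 and -0.22. Gm10076 aligned over 99.7% of its 384 bases with Rpl41, which encodes a ribosomal protein, at 99.3% identity. It measured 134, 180.4, 159.5 and 153 CPM with a log2 difference of -0.01 (adjusted p = 0.991), beside 0.22 for Rpl41 (0.558). As a set, the 12 genes with such copies had a median log2 difference of -0.47 with 2 positive, and the other 25 a median of 0.20 with 16 positive. Of the 25, Dio3os, 4930461G14Rik, C730027H18Rik, Gm36582, Snhg20 and ENSMUSG00000115902 had at least 1000 counts only in co-culture, as had Gm47761 of the 12. All of these were positive, so that their direction was tied to their selection. Several of the 12 share near-identical sequence with each other, so that they are not separate observations.

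Malat1, at chr19:5795690-5802672 on the minus strand, measured 3277 and 2807 CPM in M11 and M12, 2465 in M9 and 5167 in M10. The co-culture libraries lay on either side of the organoids alone. The log2 difference was 0.33 (SE 0.35, edgeR adjusted p = 0.703), and the third co-culture library was 0.56 above the organoids alone. Neat1, its neighbour at chr19:5824708-5845478, measured 1357, 1613, 1140 and 2374 CPM in the same order, again lowest in M9 and highest in M10. Its log2 difference was 0.24 (SE 0.34, adjusted p = 0.787), with 0.50 in the third co-culture library. Both depended on which co-culture library was kept: without M10 the differences were -0.30 and -0.38, and without M9 they were 0.78 and 0.69 and were called (adjusted p = 0.00928 and 0.0177); without M12 their adjusted p was 0.971 and 0.942.

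Levels of different genes can be compared only per length. In CPM per kilobase of annotated exon (GENCODE M21), averaged over the 4 libraries, Malat1 (491), Gm10076 (408), Gm48275 (279) and Gm47283 (183) were highest. The latter 3 are short genes with near-identical copies. Neat1, annotated over 20771 bases, stood at 78, and Kcnq1ot1, whose annotated transcript spans 93092 bases, was lowest at 0.63, although its summed count was above that of Dio3os.

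**Figure D3:**
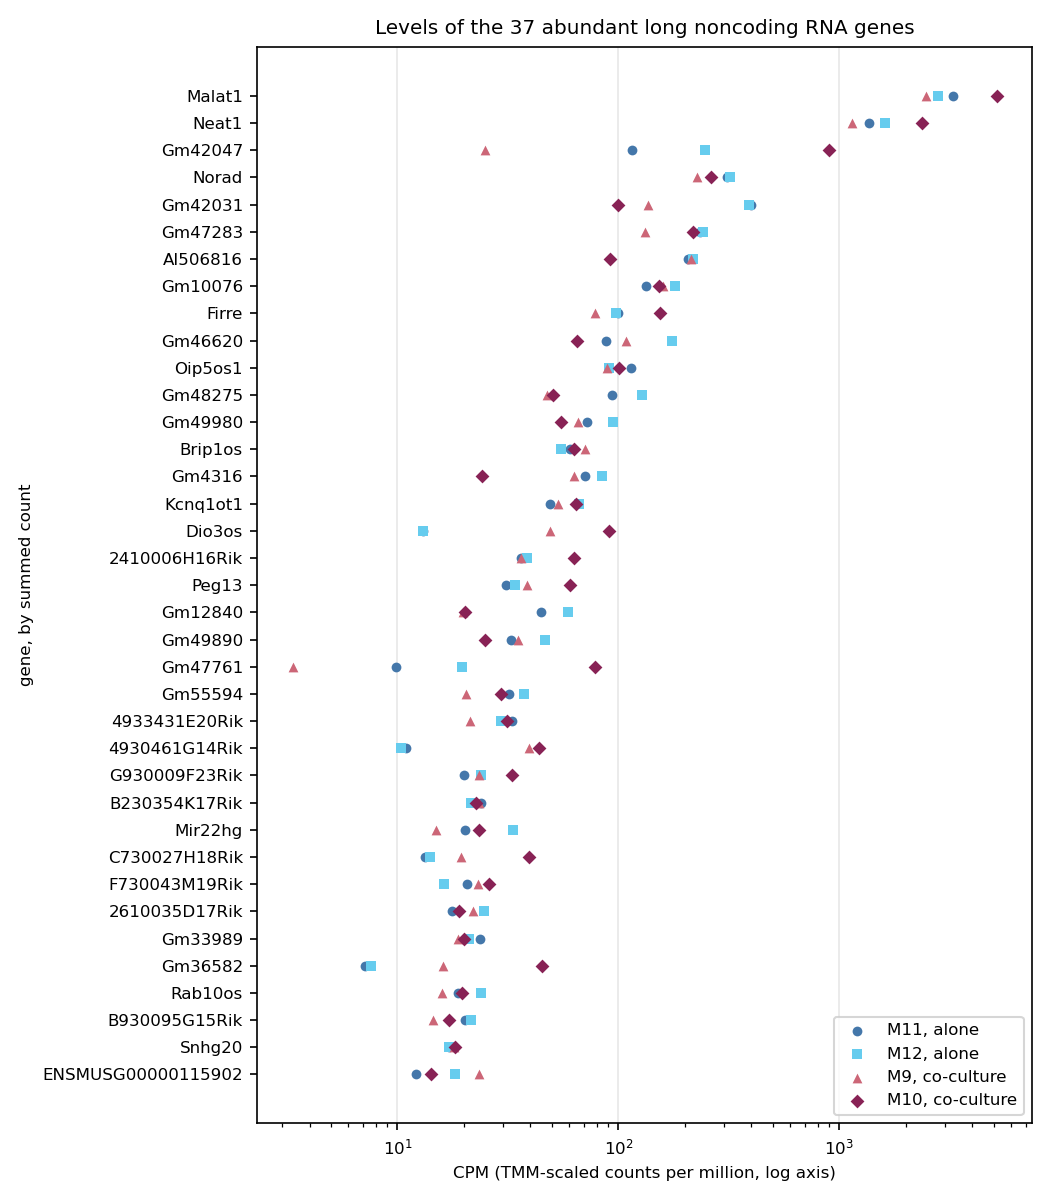
TMM-scaled CPM on a log axis for the 37 genes, ordered from top to bottom by summed count, with 1 symbol for each of the 4 libraries. Malat1 and Neat1 lie at the right from 1140 to 5167 CPM; Dio3os and 4930461G14Rik show the co-culture symbols apart from those of organoids alone, and Gm42047 and Gm47761 show M9 and M10 at opposite ends.

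Norad (chr2:156388065-156392979, minus strand), whose Pumilio sites are shown above, measured 309 and 320.5 CPM alone and 227.5 and 262 in co-culture. The groups did not overlap, but the gene was not called (log2 difference -0.36, SE 0.15, edgeR adjusted p = 0.299), and the third co-culture library stood at a difference of -0.77. Oip5os1 measured 114, 90.5, 88.4 and 101 CPM with overlapping groups and a difference of -0.11 (SE 0.18, adjusted p = 0.823); the third co-culture library stood at 32.2 CPM, a difference of -1.72. Firre, an X-linked noncoding RNA that takes part in nuclear organisation, measured 99.9, 97.7, 78.8 and 155 CPM. Of these 4 libraries M10 alone was high (log2 difference 0.24, SE 0.31, edgeR adjusted p = 0.766). The third co-culture library was high as well, at 165.5 CPM, a difference of 0.67. Without M9 the log2 difference of Firre was 0.66, and without M10 it was -0.32.

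Kcnq1ot1 and Peg13 are, besides Dio3os, noncoding RNAs of imprinted loci. Kcnq1ot1, known to silence neighbouring genes on the paternal chromosome, measured 48.9, 66.5, 53.5 and 64.2 CPM and did not separate the groups (0.03, SE 0.21, adjusted p = 0.967). Kcnq1, in which it lies on the opposite strand, measured 10.7, 13.3, 26.4 and 43.0 CPM, higher in both co-culture libraries but not called (1.53, SE 0.30, adjusted p = 0.0694). Cdkn1c, a cell cycle inhibitor of the same domain, measured 2.42, 2.02, 5.52 and 4.43 CPM (1.16, adjusted p = 0.198). Peg13, inside an intron of Trappc9, measured 30.9, 33.9, 38.7 and 60.5 CPM and was not called (0.61, SE 0.25, adjusted p = 0.289), with 1.29 in the third co-culture library. Without M9 the difference of Peg13 was 0.91 and it was called (adjusted p = 0.00685), and without M10 it was 0.26. Trappc9 itself had 32.5, 37.0, 51.9 and 65.7 CPM (0.76, SE 0.19, adjusted p = 0.123).

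**Figure D4:**
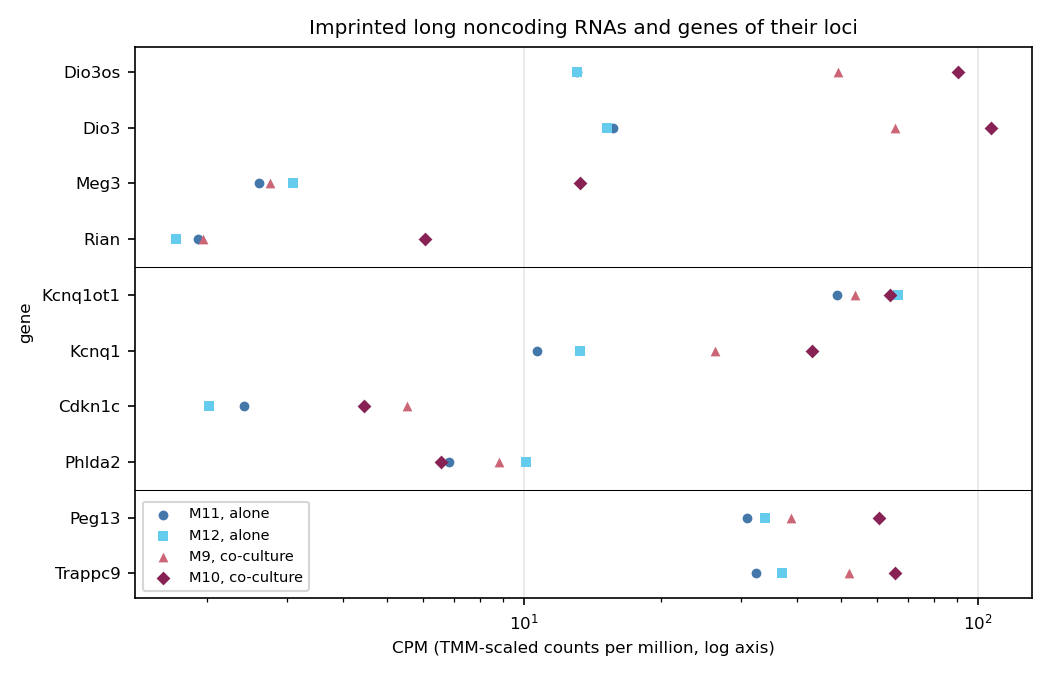
TMM-scaled CPM on a log axis in the 4 libraries for 3 noncoding RNAs of imprinted loci (Dio3os, Kcnq1ot1 and Peg13) and genes near each, separated by lines. Dio3os and Dio3 lie between 13.1 and 15.7 in the organoids alone and between 49.1 and 107 in co-culture, while the Kcnq1ot1 symbols overlap between the groups.

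Among the hosts of small RNAs, Mir22hg measured 20.1, 33.4, 14.9 and 23.4 CPM (log2 difference -0.48, SE 0.34, adjusted p = 0.543) and Snhg20 17.1, 17.1, 18.0 and 18.3 CPM (0.08, SE 0.20, 0.883). Gm49890, the host of miR-31, measured 32.5, 46.8, 35.3 and 25.0 CPM (-0.40, SE 0.27, 0.527). 2410006H16Rik, with Snord49a, Snord49b and Snord65 in its introns, measured 36.4, 38.7, 36.2 and 62.8 CPM (0.40, SE 0.28, 0.546). The groups overlapped in Mir22hg, Gm49890 and 2410006H16Rik, and M10 alone was high in the last of these, which was called without M9 (0.75, adjusted p = 0.0161).

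A further 2 genes had an unadjusted p under 0.05 without passing the adjusted threshold, so that 7 of the 37 (18.9%) did, beside 17.5% of all genes tested. Both, Gm36582 and C730027H18Rik, had at least 1000 counts only in the co-culture libraries, so that their direction too was tied to their selection. Gm36582 measured 7.16 and 7.58 CPM alone and 16.1 and 45.1 in co-culture, with M10 the highest (2.05, SE 0.49, edgeR adjusted p = 0.107); DESeq2 called it (adjusted p = 0.000396, with 3.77e-05 to 0.774 over all alternatives), while the third co-culture library had 9 counts. Its neighbour Pbp2, 9156 bases away on the same strand, measured 5.29, 6.72, 15.7 and 37.3 CPM (2.14, SE 0.45, adjusted p = 0.0807). C730027H18Rik measured 13.3, 14.1, 19.4 and 39.5 CPM (1.11, SE 0.36, adjusted p = 0.197; DESeq2 0.0454, with 0.000805 to 0.657 over all alternatives), and the third co-culture library was 2.07 above the organoids alone. AI506816 was lower only in M10, with 207, 219, 213.5 and 91.4 CPM (-0.48, SE 0.38, edgeR adjusted p = 0.593). Without M9 its log2 difference was -1.21. It shares 19.2% of its transcript with Chd9 and 18.6% with Gm43305, both at 96.1% identity. A further 16.5% is shared with Apobec3 on the opposite strand. Chd9 and Gm43305 were lowest in M10 as well, and Apobec3 was not. The part of these shared stretches in the values of AI506816 was not tested.

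Brip1os, whose start lies 177 bases from that of Brip1, measured 60.6, 54.9, 70.3 and 62.8 CPM (0.20, SE 0.16, edgeR adjusted p = 0.582), and 20.2% of its exon bases lie opposite exons of other genes. 4933431E20Rik (16.7%) and B230354K17Rik (17.8%) were the only others above 10%, with log2 differences of -0.24 and 0.02, neither called. Reads of such genes and of their opposite partners can be told apart only where strand was used in counting, which is not given in the sources used here. In all, 9 of the 37 had exon bases opposite another gene's exon, and 6 started within 1000 bases of a protein-coding start, 5 of them on the opposite strand. In 8 of the 37, exon bases were shared with another gene on the same strand, where strand cannot tell reads apart. The largest share by GENCODE M21 was that of ENSMUSG00000115902 with Apobec3 (18.8%). Of 32 nearest protein-coding neighbours tested, 17 differed in the same direction as the noncoding gene, and Dio3 was the only one called. G930009F23Rik, F730043M19Rik, 2610035D17Rik, Gm33989, Rab10os and B930095G15Rik lay between 14.5 and 32.9 CPM in every one of the 4 libraries, with log2 differences between -0.40 and 0.41, and none was called.

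The genes just inside the minimum of 2000 summed counts were ENSMUSG00000115902 (2147 counts), Snhg20 (2209.8), B930095G15Rik (2258), Rab10os (2423) and Gm36582 (2537). Those just outside were Gm20300 (1963), Gm13387 (1955), Gm46430 (1907), 5031425E22Rik (1897) and Gm4673 (1762), with log2 differences between -0.62 and 0.78 and none called. Of well-known genes, some fell outside by the row rule: Gas5 with 16383 counts has a retained-intron row, and Tug1 with 12893 counts has coding rows. Others fell outside by count, among them Meg3 with 720. Xist, which silences one X chromosome in female cells, had 5 counts in all 4 libraries together. ENSMUSG00000115902, D730005E14Rik in the annotations, is placed on the plus strand by GENCODE M21 and on the minus strand by RefSeq; it measured 12.1, 18.3, 23.4 and 14.2 CPM (0.30, SE 0.34, edgeR adjusted p = 0.722).

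The groups did not overlap in 18 of the 37 genes (48.6%), 8 higher and 10 lower in co-culture, beside 49.4% of all genes tested. The co-culture libraries also differed from each other. M10 and M9 differed at least 2-fold in 8 of the 37 genes (21.6%), against 4.51% of the 8516 genes with at least 2000 counts. The 6 genes higher in M10 were Gm42047, Gm47761, Gm36582, Malat1, Neat1 and C730027H18Rik, and the 2 lower were AI506816 and Gm4316. Of these, Gm47761, Gm36582 and C730027H18Rik reached the minimum of 2000 only with their counts in M10 (2750, 1577 and 1382). Their direction was thus tied to their selection. Gm42047 and Gm47761 share near-identical sequence, so that they are not separate observations. Between M12 and M11, both organoids alone, 1 of the 37 (2.7%) differed at least 2-fold, against 0.963% of the 8516. In the third co-culture library, the 29 matched genes had a median difference of -0.23 from the organoids alone, beside -0.03 over 14511 matched genes tested. The table of that library was made separately, and AI506816 and Gm10076 stood there at 1.22 and 16.4 CPM, far below their level in each of the 4 other libraries.

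Proteins and RNAs that work with these genes were taken as 7 lists, and no gene of them was called by edgeR. The 14 paraspeckle proteins, which Neat1 holds together, had a median log2 difference of -0.09, and one of the most abundant, Hnrnpk, had a difference of -0.16. The 13 nuclear speckle and splicing proteins had a median of -0.09 (Srrm2 0.21, Son -0.09). The 13 factors of RNA decay had a median of -0.08 (Upf1 -0.08, Smg1 0.14), and the 6 microRNA processing factors 0.02 (Ago2 0.25, Dicer1 -0.04). The 8 proteins of small nucleolar ribonucleoprotein particles had a median of -0.30 (Fbl -0.24, Nop56 -0.42), and 12 protein genes whose transcripts start with a pyrimidine tract 0.10 (Eef1a1 -0.06, Eef2 0.08). Of 5 genes of X inactivation 3 were tested, Jpx, Ftx (0.65) and Firre. At an unadjusted p under 0.05, 2 of the 68 tested genes of these lists other than Firre passed in edgeR (2.94%), beside the 17.5% of all genes. DESeq2 and limma-voom called 0 of them. Without M9, 9 of the 68 were called (13.2%), again beside 15.7% of all genes.

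RefSeq (GRCm38.p6) gave start windows of 300 bases for 22 of the 37, 23 windows in all. The letters ACGTG, on either strand, were in 9 of them (39.1%) and in 19.6% of all 32851 windows. CACGTG, which contains ACGTG, was in 8.7% against 7.2%, and TATAAA in 8.7% against 13.6%. The median number of CG was 13 against 7, and the median share of G and C 54.7% against 52.7%. A match describes letters in the window and not a bound site.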

How the data were processed

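Total RNA from 5 samples was depleted of ribosomal RNA and sequenced as stranded libraries, as the labels' protocols state. Tools named in the submitters' processing notes are HISAT2 2.1.0, StringTie 2.1.3b, Bowtie2 2.3.4.1, Trimmomatic 0.38 and FastQC 0.11.7, with mm10 and GRCh37 as builds and no roles; annotation, counting tool and strand setting are not stated there. The authors deposited estimated counts for 4 libraries, per the file headers; 73925 rows hold 52029 genes, and 1 row was kept per gene. The tables' 10 columns of other per-sample units were not used. Estimated counts, not whole in 31.7% of the genes with a count, were rounded. Whole-number counts of the third co-culture library were deposited separately, and names joined 32553 genes with 92.6% of its counts and 29 of the 37 members. Its differences are log2 CPM (prior count 2, TMM over 5 libraries) minus the mean of M11 and M12, with no test.

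The 4 libraries were compared with edgeR 4.0.16 (R 4.3.3): filterByExpr, TMM, robust quasi-likelihood fit, Benjamini-Hochberg adjustment at 0.05. The standard error is the absolute log2 difference over the square root of F. On simulated counts of 15471 genes with this design, 176 genes were called, 20 of them wrongly, and edgeR found 32% of the 2-fold and 84% of the 4-fold changes. The wrong calls were thus a larger share of the calls than the threshold of 0.05. Only genes above a minimum mean count had been given a change. Alternatives were other scalings and filters, DESeq2 1.42.0, limma-voom (limma 3.58.1), each library left out, and all 5 libraries. Positions and transcripts are from GENCODE M21 (GRCm38), microRNAs and start windows from RefSeq (GRCm38.p6). Copies were found with BLAST+ 2.17.0 at 95% identity over at least 100 bases, and genes sharing at least 50% of a transcript were grouped. The members and lists were chosen with earlier results of these data known. The text names all 37 genes, and of each list the 2 most abundant genes or those called; not every marker is printed.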

Additional observations from a re-analysis of the deposited data

How the results depend on the processing

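With 2 libraries a group, the count of 5 called genes rested on both libraries of organoids alone. It was 5 under RLE scaling, total-count scaling and a stricter filter, 6 without a filter, 7 in DESeq2, 3 in limma-voom, 0 with all 5 libraries, and between 0 and 14 with 1 library left out, where the lone library is assumed to vary like the other group. Alternatives chosen after seeing the data gave 3 of 30 genes with at least 1000 counts in each group. They gave 2 of 12 genes with whole counts, and 3 of 32 features with copies summed, beside 354 of all 15885 features. Of all 15899 genes, RLE scaling called 360, total-count scaling 413, limma-voom 285 and DESeq2 1314, against 356 in the fit described above. The stricter filter called 355 of 12619 genes and the fit without a filter 1404 of 28537. The related lists had 0 calls except without M9, so that leaving out a library gave between 0 and 9. Of the genes not called, these changed sign: B230354K17Rik (-0.024) and Kcnq1ot1 (-0.013) under total-count scaling; Gm10076 without a filter (0.003) and in limma-voom (0.007); Gm42047 in limma-voom (-0.17); and with all 5 libraries B930095G15Rik (0.093), F730043M19Rik (-0.001), Gm33989 (0.64), Kcnq1ot1 (-0.31) and Snhg20 (-0.03). With 1 library left out, log2 differences ran from -2.85 to 2.33 for Gm42047, -2.12 to 2.43 for Gm47761, -0.30 to 0.78 for Malat1, -0.38 to 0.69 for Neat1, -0.32 to 0.66 for Firre, -1.21 to 0.01 for AI506816, -0.049 to 0.75 for 2410006H16Rik, -0.26 to 0.22 for 2610035D17Rik, -0.55 to 0.023 for 4933431E20Rik, -0.05 to 0.10 for B230354K17Rik, -0.09 to 0.63 for ENSMUSG00000115902, -0.20 to 0.22 for Gm10076, -0.17 to 0.27 for Kcnq1ot1 and -0.26 to 0.074 for Oip5os1. The cause was not tested. No paired analysis was possible because the columns of the shared table carry library numbers that match no replicate number of the titles.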
